A study of Mus musculus with 32 samples.

Results

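The forkhead (Fox), T-box (Tbx) and Sox families of DNA-binding transcription factors were followed through developing mouse kidneys that express a tumour-derived form of the chromatin reader ENL, encoded by Mllt1. Members were chosen by symbol alone: every numbered Fox gene of the subfamilies a to s, every numbered Tbx gene and every numbered Sox gene, except Foxd1, Foxm1, Tbx18 and Sox17, which were left out. This gave 72 genes, 42 Fox, 12 Tbx and 18 Sox, of 55806 gene identifiers in the count tables, and all 72 were listed in all 4 tables. The rule itself used no measured value, but it was set with earlier results of these data known.

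A total of 32 RNA-seq libraries were made from C57BL/6J embryos. In the Six2 line, the BAC transgene Six2-TGCtg/+ drives Cre in nephron progenitors, and control animals (Enl+/+, here ENLWT) carried it as well. It also gives aberrant Six3 expression. Mutant animals were heterozygous for EnlT1/+ , an in-frame insertion in the YEATS domain, or for EnlT3/+ , a small deletion and substitution in the same domain. In the Foxd1 line, the knock-in Foxd1GC/+ drives Cre in stromal progenitors and takes the place of 1 Foxd1 copy in ENLWT and ENLT1 animals alike. Whole kidneys at E18.5 gave 2 libraries each of ENLWT, Six2-ENLT1 and Six2-ENLT3, and 3 each of ENLWT and Foxd1-ENLT1. Cells of the 2 lineages were sorted by a Cre-activated tdTomato reporter (tdT+): 3 libraries of ENLWT and 3 of ENLT1 in the Six2 line at E14.5, the same at E18.5, and 4 and 4 in the Foxd1 line at E18.5. Nothing in the labels says whether libraries of a group came from separate litters, so p-values measure the spread between these libraries.

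Fox proteins bind DNA through a winged-helix forkhead domain, T-box proteins through the T-box, and Sox proteins through an HMG box related to that of the sex-determining factor Sry. Many act as switches of cell identity. In the kidney, Foxc1 and Foxc2 take part in the placing of the early metanephros, Foxi1 directs the acid-secreting intercalated cells of the collecting system, Sox9 marks progenitors of the ureteric tips and of regenerating tubules, and Tbx2 and Tbx3 act in the mesenchyme around the ureter. The FoxO proteins are kept out of the nucleus by insulin and growth factor signalling.

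Sequencing depth per library was 106005614 to 157266455 counted reads in Six2 whole kidneys, 67137194 to 79343015 in Foxd1 whole kidneys, 115625561 to 137888792 in sorted Six2 cells at E14.5, 76510702 to 92026288 in sorted Six2 cells at E18.5 and 2557443 to 3508381 in sorted Foxd1 cells. Low genes could therefore be measured least well in the stroma, where 28 members passed the count filter, against 49 and 56 in sorted Six2 cells. The log2 fold change of Mllt1, the targeted gene, between ENLT1 and ENLWT lay between −0.27 ± 0.050 (Foxd1 whole kidneys) and −0.02 ± 0.065 (sorted Six2 cells at E18.5) and was −0.33 ± 0.077 in ENLT3, under 1.5-fold throughout, and gene counts do not tell mutant from WT reads. The 6 nephron progenitor markers (Six2, Cited1, Eya1, Crym, Osr1 and Spock2) summed to 1761 to 2049 CPM (a gene's reads relative to the TMM-scaled library total, the unit used throughout) in sorted Six2 ENLWT cells at E14.5, and the 9 stromal markers to 7816 to 10416 CPM in sorted Foxd1 ENLWT cells. The Six2-sorted ENLWT cells held 466 to 613 CPM of the stromal list at E14.5. Endothelial markers (244 to 469 CPM) and macrophage markers (122 to 309 CPM) were also present in the Foxd1-sorted ENLWT cells. The Y-linked gene Ddx3y, chosen after its values were seen, was at 0 in 1 Six2 whole-kidney ENLWT library and in both ENLT3 libraries and stood at 122 to 126 CPM in both ENLT1 libraries, so the libraries of ENLT1 and ENLT3 differ in sex, while those of ENLWT hold 1 of each kind. In sorted Six2 cells Ddx3y read 122, 0 and 0 CPM in ENLWT and 130, 132 and 0 CPM in ENLT1 at E14.5. At E18.5 it read 139, 0 and 0 CPM in ENLWT and 143, 0 and 0.0266 CPM in ENLT1. Every Foxd1-sorted library held 82.4 to 112 CPM, and Foxd1 whole kidneys had 0 reads. Sex was therefore uneven between genotypes at E14.5 and between the sorted lineages. In these bulk libraries, fewer cells of a type and less RNA per cell cannot be told apart.

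Across the 6 comparisons of mutant with ENLWT, 25 of the 72 members passed the call (edgeR quasi-likelihood test, Benjamini-Hochberg adjusted p under 0.05 and fold over 1.5) at least once and 47 never did. Of the 62 members tested in any of these comparisons this was 40.3%, beside 22.3% of the 26283 genes tested in any of them. Foxp2 and Foxj1 were called in 4 comparisons each. Foxj1 was lower in all 4 of its calls, whereas Foxp2 was higher in both Six2 comparisons of sorted cells and lower in both Foxd1 comparisons. The count filter kept 10 members out of every comparison, and of these Foxb2 and Tbx5 had no read in any library. The others were Foxb1, Foxd4, Foxi2, Foxn4, Foxr1, Foxr2, Sox14 and Tbx22.

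**Figure D1:**
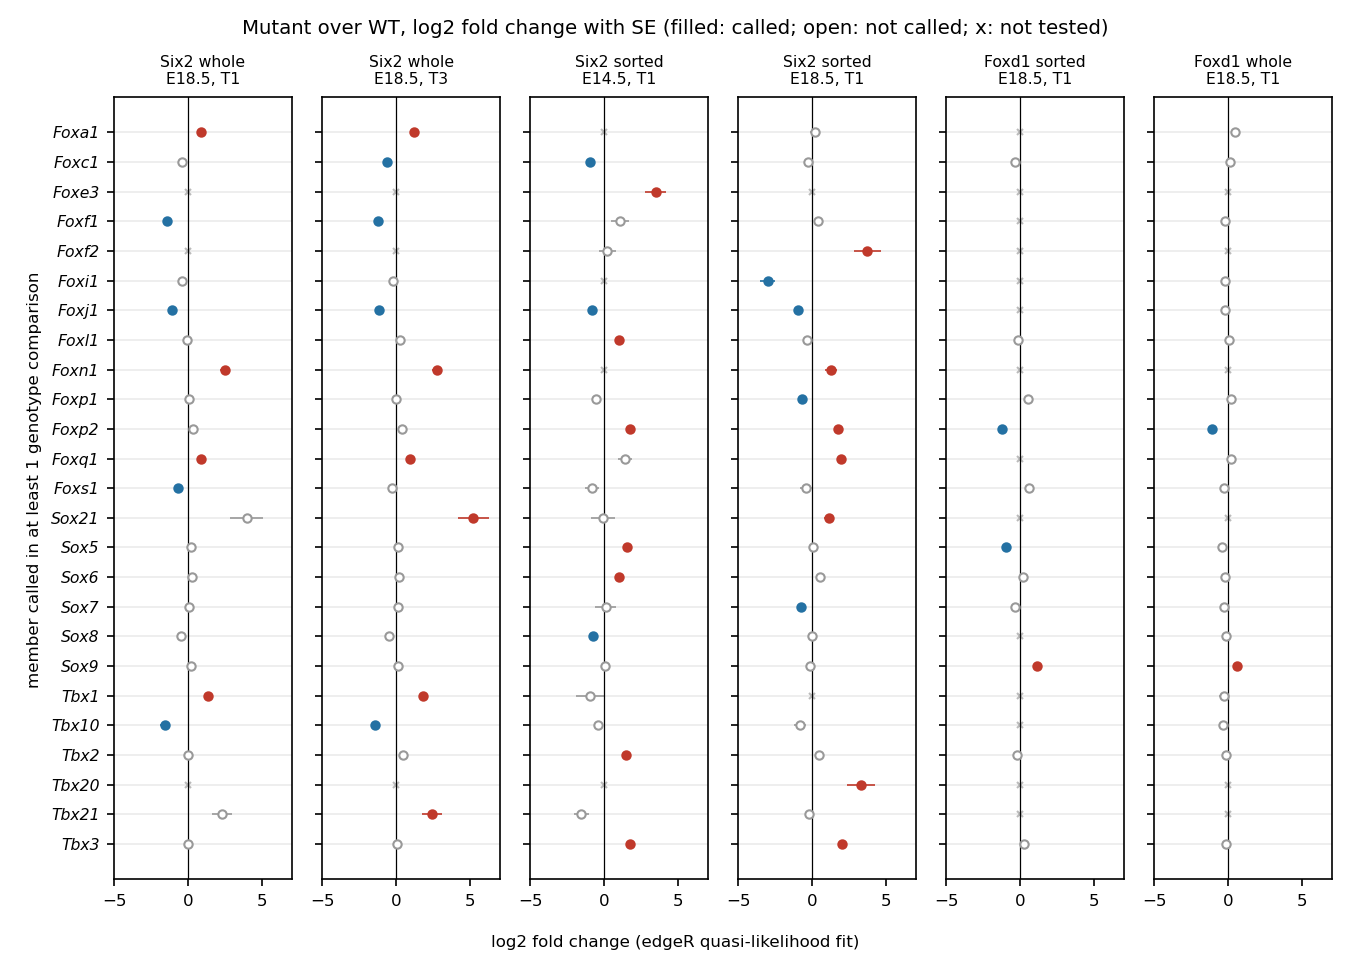
The log2 fold change of each of the 25 members called at least once (rows), mutant over ENLWT, in the 6 genotype comparisons (panels), with its SE as a line. Filled points passed the call (red higher, blue lower), open points did not, and crosses mark members that were not tested. Foxp2 lies right of 0 in the sorted Six2 cells and left of 0 in both Foxd1 comparisons.

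Promoter sequence was read for members whose genes have an entry in the RefSeq promoter table (assembly GRCm38.p6): 48 of the 72 members had at least 1 of 61 promoters. The 250 bases before the annotated start are shown for 4 called members, to set promoters with and without the binding motifs of these families side by side. Capitals mark matches, on either strand, to the forkhead core TGTTTAC, the Sox core AACAAAG or AACAATG, or the T-box half-site GGTGTGA. Foxa1 (chr12:57546112-57546361, minus strand) holds a forkhead and a Sox match that overlap each other, and Sox6 (chr7:115846141-115846390, minus strand, 1 of its 6 listed promoters) holds a T-box and a Sox match. Foxc1 (chr13:31806396-31806645, plus strand) and Sox5 (chr6:143947107-143947356, minus strand) hold none of them, with 29 and 3 CpG dinucleotides. The Sox5 window lies inside the annotated gene (chr6:143828425-144781977), before an internal start, as does the Sox6 window in its gene (chr7:115470872-116038796). The Foxa1 window with its matches also lies inside its annotated gene (chr12:57540628-57546916). The end of the Foxc1 window overlaps the start of its gene (chr13:31806633-31812476).
Foxa1: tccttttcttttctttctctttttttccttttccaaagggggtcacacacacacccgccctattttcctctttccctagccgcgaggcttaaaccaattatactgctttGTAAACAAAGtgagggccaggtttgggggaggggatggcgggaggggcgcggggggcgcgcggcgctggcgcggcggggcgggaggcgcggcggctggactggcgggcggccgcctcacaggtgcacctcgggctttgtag
Sox6: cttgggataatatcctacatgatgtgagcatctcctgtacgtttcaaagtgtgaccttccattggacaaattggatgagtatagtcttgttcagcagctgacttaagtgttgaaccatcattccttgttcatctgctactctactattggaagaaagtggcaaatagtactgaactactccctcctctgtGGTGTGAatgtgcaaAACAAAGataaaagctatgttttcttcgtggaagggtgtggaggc
Foxc1: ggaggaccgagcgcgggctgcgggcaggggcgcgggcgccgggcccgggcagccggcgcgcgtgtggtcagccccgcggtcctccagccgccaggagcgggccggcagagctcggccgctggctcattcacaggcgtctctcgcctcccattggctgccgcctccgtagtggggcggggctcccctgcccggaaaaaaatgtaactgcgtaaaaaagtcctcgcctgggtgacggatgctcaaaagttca
Sox5: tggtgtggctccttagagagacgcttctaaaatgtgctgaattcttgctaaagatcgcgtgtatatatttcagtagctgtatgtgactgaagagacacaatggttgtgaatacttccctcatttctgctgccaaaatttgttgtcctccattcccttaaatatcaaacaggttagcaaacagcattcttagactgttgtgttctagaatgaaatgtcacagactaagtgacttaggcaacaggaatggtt
The forkhead core was in 2 of the 61 member promoters (3.28%) and in 3.17% of all 32851 promoters of the same length. Either Sox core was in 9 of 61 (14.8%) against 8.12% of all, but 4 of the 9 belong to Sox6 and 2 to Foxp1, and by gene it was in 5 of 48 members (10.4%) against 9.25% of all 27025 genes. By promoter, the T-box half-site was in 1 of 61 (1.64%) against 3.33%, and TATAAA in 6 of 61 (9.84%) against 12.4%. The median CpG count was 13 in member promoters and 6 in all promoters. A match is a string of letters in this window and was not tested for binding.

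Members differed widely in level. Per kilobase of exon, which allows genes to be compared, Sox4 stood first in sorted Six2 ENLWT cells at E14.5, at 91.6 ± 4.65 CPM per kb (mean ± SD, n = 3). Foxc2 (79.6 ± 3.89), Foxd2 (71.0 ± 10.7) and Foxc1 (69.6 ± 7.98) followed, and each overlapped the next of these 3. Sox12 (53.7 ± 0.571) and Sox11 (52.9 ± 4.33), which with Sox4 make up the SoxC group of progenitor and survival factors, overlapped each other. At E18.5 Sox11 led at 84.2 ± 9.32 CPM per kb, clear of Foxo3 at 43.0 ± 2.43, and Foxo4 came next at 37.2 ± 1.41. From Foxo4 down to Foxp4, the tenth, each member overlapped the next. In Foxd1-lineage ENLWT stroma Sox4 reached 122 ± 4.53 CPM per kb (n = 4), Foxc2 38.7 ± 2.07, and Tbx3 (23.0 ± 1.48), Foxl1 (22.4 ± 1.55) and Tbx2 (21.7 ± 3.14) overlapped one another. Sox4, Foxc2, Sox12, Sox9 and Sox11 were among the 10 highest in all 3 groups. Of the exon length of Sox4, 54.6% is shared with the gene Gm26735. Reads were counted without strand, so the reads of that stretch cannot be told apart. Whether such reads were counted is not stated, and if they were left out, the level of Sox4 per kb is too low.

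**Figure D2:**
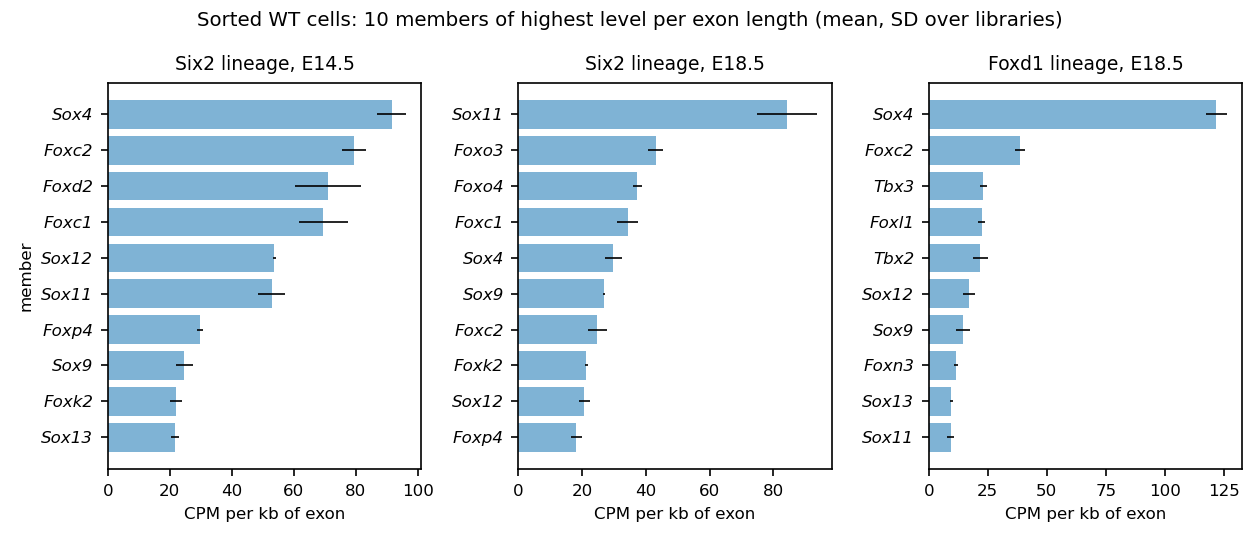
The 10 members of the highest level per exon length in each sorted ENLWT group, as CPM per kb of exon (bars, mean, and lines, SD over 3, 3 and 4 libraries). Sox4 leads in E14.5 Six2-lineage and E18.5 Foxd1-lineage cells and Sox11 in E18.5 Six2-lineage cells.

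In sorted Six2-lineage cells at E14.5, Foxp2, Tbx2, Tbx3, Sox5, Sox6, Foxl1 and Foxe3 were upregulated in ENLT1 and Foxc1, Foxj1 and Sox8 were downregulated. Of 49 members tested, 7 were higher and 3 lower (14.3% and 6.12%), while 4.11% and 2.28% of all genes tested were called higher and lower. The median log2 fold change was −0.08 over the tested members and 0.0035 over all genes. By family, 3 Fox, 2 Tbx and 2 Sox genes rose, and 2 Fox and 1 Sox gene fell.

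Foxp2, a transcriptional repressor best known from the brain circuits of speech and song, gave the smallest p of any member. Its level was 5.89, 5.52 and 7.19 CPM in the 3 ENLWT libraries and 20.5, 19.4 and 21.7 CPM in the 3 ENLT1 libraries. The lowest mutant library was far above the highest control (log2 fold change 1.75 ± 0.12, adjusted p = 8.64e-05, a 3.35-fold increase). Tbx3, a T-box repressor of the ureteral mesenchyme and the limb, stood at 2.67, 2.00 and 4.28 CPM in ENLWT and 9.37, 7.81 and 12.6 CPM in ENLT1 cells. All 3 mutant libraries exceeded all 3 controls (log2 fold change 1.75 ± 0.28, adjusted p = 0.00541). Its paralogue Tbx2 measured 9.28, 12.6 and 17.7 CPM in ENLWT and 39.8, 32.1 and 36.8 CPM in ENLT1 cells. The controls themselves ranged nearly 2-fold, yet none reached a mutant library (log2 fold change 1.47 ± 0.21, adjusted p = 0.00289).

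The SoxD genes Sox5 and Sox6, which lack an activation domain and partner Sox9 in cartilage, went up. For Sox5 the controls were tight at 1.15, 1.18 and 1.21 CPM, and the mutants stood at 3.15, 2.90 and 4.11 CPM. The groups were well apart (log2 fold change 1.53 ± 0.18, adjusted p = 0.00112). For Sox6 the controls read 3.37, 1.76 and 2.73 CPM and the mutants 3.99, 5.48 and 5.69 CPM. The gap between the highest control and the lowest mutant was small (log2 fold change 0.96 ± 0.24, adjusted p = 0.0358). The SoxE gene Sox8 went the other way, from 5.72, 5.37 and 4.99 CPM to 3.02, 3.20 and 3.15 CPM. Every mutant library was below every control (log2 fold change −0.76 ± 0.11, adjusted p = 0.00387), although 10.6% of its exon length is shared with 2810468N07Rik. For its relative Sox9 no change was detected (114, 101 and 91.9 CPM in ENLWT, 94.8, 110.3 and 102 CPM in ENLT1). These ranges overlapped (log2 fold change 0.02 ± 0.084, adjusted p = 0.920).

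Foxc1, a regulator of mesoderm and of the early metanephric field, was the most abundant of the 3 members called lower. It measured 372, 459.8 and 388 CPM in ENLWT and 218, 218 and 187 CPM in ENLT1 cells. The mutants were at about the same level as one another and all well below the controls (log2 fold change −0.95 ± 0.089, adjusted p = 4.21e-04). Its paralogue Foxc2, 212, 229 and 209.6 CPM in ENLWT and 273, 285 and 266 CPM in ENLT1 cells, had an adjusted p under the threshold but a fold too small for a call (log2 fold change 0.36 ± 0.047, adjusted p = 0.00194). Here the mutants were the higher group. Foxj1, the master regulator of motile cilia, stood at 1.82, 2.08 and 2.32 CPM in ENLWT and 0.846, 1.07 and 1.47 CPM in ENLT1 cells. The groups did not overlap (log2 fold change −0.86 ± 0.23, adjusted p = 0.0452).

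Foxl1, a factor of mesenchymal cells beneath epithelia, read 4.23, 4.85 and 4.38 CPM in ENLWT and 8.34, 8.58 and 10.1 CPM in ENLT1 cells. The mutant libraries were all about 2-fold higher (log2 fold change 1.02 ± 0.11, adjusted p = 9.80e-04). Foxe3, known from the lens, was near the limit of detection at 0.0546, 0.00714 and 0.0306 CPM in ENLWT and 0.451, 0.344 and 0.230 CPM in ENLT1 cells. The summed reads were 12 in ENLWT and 138 in ENLT1, a ratio of 11.4, with a 95% exact interval of 6.31 to 22.6 for counting error (log2 fold change 3.47 ± 0.69, adjusted p = 0.0129). Some of these calls rest on single libraries. Foxj1 lost its call without ENLWT replicate 1, 2 or 3 or ENLT1 replicate 1 or 2 (log2 fold change −0.95 to −0.69, adjusted p = 0.0671 to 0.130), Sox6 without ENLWT replicate 2 or 3 or ENLT1 replicate 2 or 3 (log2 fold change 0.74 to 0.99, adjusted p = 0.0666 to 0.118) and Foxe3 without ENLT1 replicate 1 (log2 fold change 3.20, adjusted p = 0.0556).

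Stromal markers moved with these changes. Of the 9 listed, such as Meis1, Pdgfra, Col1a1 and Dcn, 7 were higher in ENLT1 cells at E14.5 and 0 lower (median log2 fold change 2.08), and their summed level was 466 to 613 CPM in ENLWT and 985 to 1871 CPM in ENLT1 libraries, with none of the 9 at 0. Of the stromal factors that the choice of members left out, Tbx18 was higher in the mutants (1.22 ± 0.516 to 4.78 ± 1.97 CPM, mean ± SD, log2 fold change 1.99 ± 0.39, adjusted p = 0.0121) and Foxd1 was lower (144 ± 13.2 to 73.3 ± 18.4 CPM, log2 fold change −0.96 ± 0.16, adjusted p = 0.00571). Macrophage markers summed to 21.0 to 102 CPM in ENLWT and 42.9 to 87.9 CPM in ENLT1 libraries, with 0 of 8 higher. All 6 nephron progenitor markers were lower (median −1.05). What part these cells had in the results for Tbx2, Tbx3, Foxl1, Sox5 and Foxp2 was not tested.

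**Figure D3:**
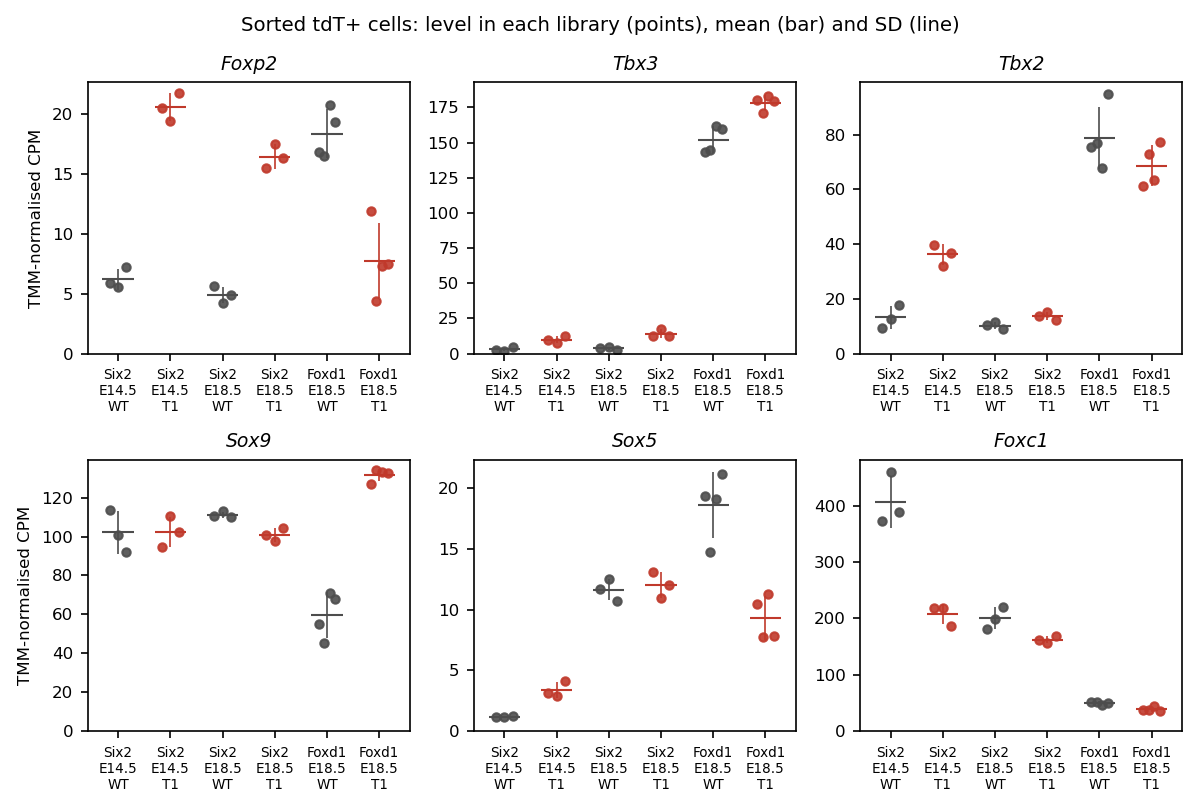
TMM-normalised CPM of Foxp2, Tbx3, Tbx2, Sox9, Sox5 and Foxc1 in each library of the 6 groups of sorted tdT+ cells (points; the bars show the mean and the lines the SD of 3 or 4 libraries). Foxp2 rises in ENLT1 at both Six2-lineage stages and falls in the Foxd1 lineage, where Sox9 rises.

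At E18.5, sorted Six2-ENLT1 cells showed higher Foxp2, Tbx3, Foxq1, Foxn1, Sox21, Tbx20 and Foxf2 and lower Foxi1, Foxj1, Foxp1 and Sox7 than ENLWT cells. Of 56 members tested, 7 were higher and 4 lower (12.5% and 7.14%), beside 6.14% and 5.54% of all genes. The median log2 fold change was −0.07 for members and 0.015 for all genes.

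Foxp2 was again among the clearest, at 5.60, 4.19 and 4.87 CPM in ENLWT and 15.5, 17.5 and 16.3 CPM in ENLT1 cells. No mutant library came near a control (log2 fold change 1.76 ± 0.13, adjusted p = 4.86e-07). Tbx3 measured 4.18, 4.38 and 2.22 CPM in ENLWT and 12.3, 17.5 and 12.5 CPM in ENLT1 cells. The lowest mutant library lay well over 2-fold above the highest control (log2 fold change 1.98 ± 0.22, adjusted p = 2.86e-05). Tbx2, at 10.3, 11.4 and 8.96 CPM and 13.7, 15.3 and 12.3 CPM, was short of the fold threshold (log2 fold change 0.43 ± 0.12, adjusted p = 0.0249). Its groups were still separate, by a small margin.

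Among forkhead genes, Foxp1, the close relative of Foxp2 with which it can form dimers, was the most abundant that was called. It stood at 177, 194 and 195 CPM in ENLWT and 117, 109 and 119 CPM in ENLT1 cells. The fall was uniform over the 3 mutant libraries (log2 fold change −0.71 ± 0.065, adjusted p = 3.78e-06). At E14.5 the same gene read 147, 141 and 132 CPM in ENLWT and 91.5, 97.4 and 96.8 CPM in ENLT1 cells, lower in all 3 mutants but short of the fold threshold (log2 fold change −0.54 ± 0.052, adjusted p = 4.78e-04). Foxq1, a factor linked to epithelial plasticity, went from 1.23, 1.78 and 1.73 CPM to 6.61, 5.34 and 6.35 CPM. The mutants were about 4-fold higher (log2 fold change 1.96 ± 0.18, adjusted p = 5.15e-06). Of the exon length of Foxq1, 66.1% is shared with A530084C06Rik, and unstranded reads of that stretch cannot be assigned to either gene. Whether such reads were counted is not stated.

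Foxj1 stood at 11.9, 11.8 and 12.9 CPM in ENLWT and 6.78, 5.25 and 6.21 CPM in ENLT1 cells. All mutant libraries were about 2-fold below the controls (log2 fold change −0.999 ± 0.12, adjusted p = 5.97e-05). Foxi1, which switches on the proton pump of intercalated cells, was low, at 0.985, 1.96 and 2.30 CPM in ENLWT and 0.152, 0.0877 and 0.413 CPM in ENLT1 cells. No mutant library reached the lowest control (log2 fold change −3.01 ± 0.49, adjusted p = 6.24e-04). Of 8 Foxi1 target genes (Atp6v1b1, Atp6v0d2, Atp6v1g3, Atp6v0a4, Slc4a1, Slc4a9, Slc26a4 and Aqp6), 6 were lower and 0 higher (median log2 fold change −1.38). Of 11 Foxj1 target genes of motile cilia, 10 were tested and 0 were called (median 0.0046).

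The other calls were of weakly expressed genes. Foxn1, which builds the thymic epithelium, read 0.240, 0.267 and 0.511 CPM in ENLWT and 0.946, 0.689 and 0.786 CPM in ENLT1 cells. The mutants were higher but the controls were uneven (log2 fold change 1.26 ± 0.39, adjusted p = 0.0374). Sox21, a SoxB repressor of the nervous system and hair follicle, read 0.430, 0.840 and 1.18 CPM and 2.18, 1.42 and 1.66 CPM. The groups stayed apart by a small gap (log2 fold change 1.11 ± 0.34, adjusted p = 0.0323). Sox7, a SoxF factor of blood vessels, read 1.97, 1.78 and 1.79 CPM and 1.16, 1.29 and 0.746 CPM. All mutants were lower (log2 fold change −0.78 ± 0.25, adjusted p = 0.0453). Tbx20, known from the heart, read 0.0126, 0 and 0.0568 CPM and 0.152, 0.414 and 0.133 CPM, and the mutants were the higher group. Its summed reads, 5 and 57, gave a ratio of 10.5, with a 95% exact interval of 4.26 to 33.7 for counting error (log2 fold change 3.31 ± 0.94, adjusted p = 0.0239). Foxf2, a hedgehog-responsive mesenchymal factor, read 0, 0.0127 and 0.0426 CPM and 0.174, 0.439 and 0.147 CPM, and its groups were apart. Its summed reads, 4 and 62, gave a ratio of 14.3, with a 95% exact interval of 5.32 to 54.2 for counting error (log2 fold change 3.73 ± 0.92, adjusted p = 0.0111).

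These 5 calls depended on single libraries, and without ENLWT replicate 1 or 2 the count of members higher fell from 7 to 4. Foxn1 lost its call without ENLWT replicate 1 or 2 or ENLT1 replicate 1, 2 or 3 (log2 fold change 1.07 to 1.36, adjusted p = 0.0648 to 0.135). For Sox21 the call was lost without ENLWT replicate 1 or 2 or ENLT1 replicate 1 or 3 (log2 fold change 0.81 to 1.14, adjusted p = 0.0694 to 0.135), for Sox7 without ENLWT replicate 1, 2 or 3 or ENLT1 replicate 1 or 3 (log2 fold change −0.85 to −0.59, adjusted p = 0.0783 to 0.141), for Tbx20 without ENLWT replicate 1 or 2 or ENLT1 replicate 2 (log2 fold change 2.60 to 3.03, adjusted p = 0.0795 to 0.166), and for Foxf2 without ENLWT replicate 2 or ENLT1 replicate 2 (log2 fold change 3.07 to 3.54, adjusted p = 0.0615 to 0.0897). Other cell types moved alongside. The stromal list had 6 of 9 higher and 1 (Tcf21) lower, with a summed level of 653 to 871 CPM in ENLWT and 1124 to 1267 CPM in ENLT1 libraries. The macrophage list (Adgre1, Csf1r, Cd68, Fcgr1, Lyz2, C1qa, C1qb and C1qc) had 6 of 8 higher, with summed levels of 33.1 to 36.1 CPM in ENLWT and 71.4 to 86.9 CPM in ENLT1 libraries. The endothelial list, given beside Sox7, summed to 62.6 to 73.4 CPM in ENLWT and 49.0 to 65.2 CPM in ENLT1 libraries, with 1 of 10 (Pecam1) lower. All 6 podocyte and all 8 tubule markers were lower (median log2 fold changes −3.75 and −2.34). All 6 nephron progenitor markers were lower as well (median −1.64, 1073 to 1381 against 392.2 to 503 CPM in sum), and of 6 smooth muscle markers 3 were higher and 1 lower. None of the stromal, macrophage, endothelial, podocyte and tubule lists had a member at 0 in either group. Their part in the changes of the Fox, Tbx and Sox genes was not tested.

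Whether the effect of ENLT1 differed between E14.5 and E18.5 was tested by the interaction of stage and genotype in one fit of the 12 sorted Six2 libraries. Of 58 members tested, 8 (13.8%) differed, beside 8.16% of all genes. The effect was more positive at E14.5 for Sox5 (difference of log2 fold changes, E18.5 minus E14.5, −1.47 ± 0.20, adjusted p = 3.97e-04), Foxl1 (−1.37 ± 0.18, adjusted p = 3.44e-04), Tbx2 (−1.03 ± 0.26, adjusted p = 0.0266) and Foxo3 (−0.49 ± 0.13, adjusted p = 0.0404). The effect was more positive at E18.5 for Foxc1 (0.66 ± 0.13, adjusted p = 0.00550), Sox8 (0.77 ± 0.18, adjusted p = 0.0186) and Sox12 (0.39 ± 0.098, adjusted p = 0.0274).

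Sox5 shows this most plainly. At E18.5 it stood at 11.7, 12.5 and 10.7 CPM in ENLWT and 13.1, 11.0 and 11.99 CPM in ENLT1 cells. The groups overlapped (log2 fold change 0.05 ± 0.11, adjusted p = 0.809), in contrast to the separate groups at E14.5. Foxl1 at E18.5 read 8.59, 7.65 and 6.57 CPM in ENLWT and 6.02, 5.75 and 5.93 CPM in ENLT1 cells, with the mutants lower and no call (log2 fold change −0.36 ± 0.13, adjusted p = 0.0779). Sox8 read 13.6, 9.55 and 12.3 CPM and 11.9, 11.1 and 12.1 CPM, and its mutant values lay within the control range (log2 fold change −0.01 ± 0.13, adjusted p = 0.985). Foxc1 read 182, 199.6 and 220.5 CPM and 162, 155 and 169 CPM, still lower in all 3 mutants but by less than 1.5-fold (log2 fold change −0.30 ± 0.074, adjusted p = 0.0105). Sox6 at E18.5, 19.7, 23.7 and 18.2 CPM and 28.3, 29.2 and 32.0 CPM, was higher in all 3 mutants and just under the fold threshold (log2 fold change 0.55 ± 0.10, adjusted p = 0.00213), and its interaction was not called (−0.41 ± 0.27, adjusted p = 0.431).

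For Foxp2 (0.02 ± 0.18, adjusted p = 0.976) and Tbx3 (0.24 ± 0.41, adjusted p = 0.814) a difference between the stages was not detected. The interaction was also called for Foxi1 (fitted difference −9.17 ± 2.23, adjusted p = 0.0269), whose E14.5 libraries held 0, 0 and 0 CPM in ENLWT and 0, 0.00818 and 0.237 CPM in ENLT1 cells, so that the fitted size rests on libraries without reads and is no bound. The calls for Foxi1, Tbx2, Foxo3, Sox12 and Sox8 were each lost when single libraries were left out. Foxi1 was lost without E14.5 ENLWT replicate 2, E14.5 ENLT1 replicate 3, E18.5 ENLWT replicate 2 or 3 or E18.5 ENLT1 replicate 1 or 2 (difference −9.14 to −5.07, adjusted p = 0.0518 to 0.330), Tbx2 without E14.5 ENLWT replicate 2, E14.5 ENLT1 replicate 1 or 3, E18.5 ENLWT replicate 2 or E18.5 ENLT1 replicate 3 (difference −1.02 to −0.96, adjusted p = 0.0524 to 0.0593) and Foxo3 without E14.5 ENLWT replicate 2 or 3, E14.5 ENLT1 replicate 2 or 3, E18.5 ENLWT replicate 1 or 2 or E18.5 ENLT1 replicate 1 or 2 (difference −0.53 to −0.39, adjusted p = 0.0512 to 0.0960). Sox12 was lost without E14.5 ENLWT replicate 2, E14.5 ENLT1 replicate 3, E18.5 ENLWT replicate 1 or 2 or E18.5 ENLT1 replicate 2 or 3 (difference 0.28 to 0.39, adjusted p = 0.0533 to 0.137) and Sox8 without E18.5 ENLWT replicate 2 or E18.5 ENLT1 replicate 1 or 3 (difference 0.58 to 0.70, adjusted p = 0.0619 to 0.0741). In all, without E18.5 ENLWT replicate 2 the count of members called fell from 8 to 3, and without E14.5 ENLWT replicate 2 or E14.5 ENLT1 replicate 3 to 4. Without E18.5 ENLT1 replicate 1 or 2 it was 5. Kidneys were dissociated with trypsin at E14.5 and with collagenase at E18.5, so stage and dissociation cannot be told apart.

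In sorted Foxd1-lineage stroma at E18.5, Sox9 was upregulated and Foxp2 and Sox5 were downregulated in ENLT1. Of 28 members tested, 1 was higher and 2 lower (3.57% and 7.14%), beside 3.63% and 2.18% of all genes. The members' median log2 fold change was −0.14 and that of all genes −0.004.

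Sox9, a regulator of cartilage and of progenitors in many epithelia, stood at 54.9, 45.4, 70.8 and 67.8 CPM in the 4 ENLWT libraries and at 127, 134, 133 and 133 CPM in the 4 ENLT1 libraries. The mutants lay close together and far above the highest control (log2 fold change 1.16 ± 0.11, adjusted p = 6.91e-07, a 2.23-fold increase). Sox5, which acts with Sox9 in cartilage, read 19.3, 14.7, 19.1 and 21.1 CPM in ENLWT and 10.4, 7.72, 11.3 and 7.82 CPM in ENLT1 stroma. All mutants were below all controls (log2 fold change −0.996 ± 0.18, adjusted p = 0.00130). The third gene of that trio, Sox6, read 6.17, 5.89, 7.32 and 3.65 CPM and 4.84, 8.72, 7.63 and 5.21 CPM. Its groups overlapped (log2 fold change 0.20 ± 0.27, adjusted p = 0.715). Of 12 cartilage genes listed as Sox9 targets, 6 could be tested in the stroma, and Col11a1 (log2 fold change 0.995 ± 0.091, adjusted p = 6.01e-07) and Col9a2 (log2 fold change 1.09 ± 0.22, adjusted p = 0.00283) were higher and none lower. The list also moved in sorted Six2-ENLT1 cells, where Sox9 was not called. There 3 of 11 tested were higher and 2 lower at E14.5, and 2 of 12 higher and 5 lower at E18.5. In Six2 whole kidneys 1 of 12 was higher and 2 lower in each mutant. What part Sox9 had in these changes was not tested.

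Foxp2 read 16.8, 16.5, 20.7 and 19.3 CPM in ENLWT and 11.9, 4.36, 7.27 and 7.496 CPM in ENLT1 stroma. The highest mutant library was still below the lowest control (log2 fold change −1.24 ± 0.22, adjusted p = 9.38e-04). Foxp1 read 39.8, 35.9, 30.1 and 40.5 CPM and 52.5, 57.7, 50.1 and 47.6 CPM, higher in all 4 mutants and under the fold threshold (log2 fold change 0.50 ± 0.11, adjusted p = 0.00476). Foxc2, at 103, 109, 98.8 and 111 CPM and 74.5, 83.2, 75.9 and 84.4 CPM, was lower in all 4 mutants by less than 1.5-fold (log2 fold change −0.41 ± 0.079, adjusted p = 0.00193). Tbx3, at 143, 144, 161 and 159.7 CPM and 180.3, 171, 183 and 179.6 CPM, was higher in all 4 by a still smaller fold (log2 fold change 0.23 ± 0.071, adjusted p = 0.0416). Tbx2 overlapped, at 75.7, 76.9, 67.9 and 94.8 CPM in ENLWT and 61.1, 72.8, 63.6 and 77.2 CPM in ENLT1 stroma (log2 fold change −0.20 ± 0.11, adjusted p = 0.282).

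The stromal list itself had 1 of 9 higher (Lum) and 3 lower, with summed levels of 7816 to 10416 and 7641 to 8633 CPM. Macrophage markers were higher for 5 of 8 (122 to 309 against 250.3 to 350.2 CPM in sum). Of the tubule markers 4 of 6 tested were lower (median log2 fold change −1.07, 98.0 to 268 against 44.7 to 83.8 CPM in sum). So were 1 of 2 ureteric tree markers tested (101 to 132 against 75.2 to 105 CPM in sum) and 1 of 6 podocyte markers. Most of the ureteric tree sum was Wnt11, at 65.6 to 85.4 CPM in ENLWT and 69.7 to 95.3 CPM in ENLT1 stroma. Aqp2 of the same list read 26.3 to 45.7 CPM in ENLWT and 2.01 to 3.35 CPM in ENLT1 stroma. Nephron progenitor markers, 1 of 6 higher, summed to 135 to 183 and 153 to 202 CPM. Their part in the changes of Sox9, Sox5 and Foxp2 was not tested. A count of 3 reads in these libraries equals 0.855 to 1.17 CPM, so genes such as Foxi1, Foxq1 and Sox21 lay near or under it.

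The effect of ENLT1 in the 2 lineages was compared by an interaction term over the 14 sorted E18.5 libraries. Of 32 members tested, 10 (31.3%) differed, beside 15.9% of all genes. Foxp2 had the most negative difference of log2 fold changes (Foxd1 minus Six2 lineage, −3.02 ± 0.27, adjusted p = 6.11e-08). It was called higher in one lineage and lower in the other. Foxp1 had the opposite sign (1.19 ± 0.13, adjusted p = 9.05e-07), being lower in Six2-ENLT1 cells and, by less than the fold threshold, higher in Foxd1-ENLT1 cells. Sox9 was also more positive in the stroma (1.27 ± 0.13, adjusted p = 7.48e-07), and in Six2-lineage cells at E18.5 it read 111, 113 and 110.0 CPM in ENLWT and 101, 97.5 and 105 CPM in ENLT1 cells (log2 fold change −0.13 ± 0.059, adjusted p = 0.140).

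The remaining 7 were more negative in the stroma: Tbx3 (−1.76 ± 0.21, adjusted p = 4.67e-06), Tbx2 (−0.65 ± 0.16, adjusted p = 0.00644), Sox5 (−1.07 ± 0.22, adjusted p = 0.00142), Foxq1 (−2.47 ± 0.67, adjusted p = 0.0140), Foxc2 (−0.54 ± 0.12, adjusted p = 0.00389), Sox13 (−0.46 ± 0.13, adjusted p = 0.0144) and Sox12 (−0.44 ± 0.14, adjusted p = 0.0284). Foxq1 lost its call without Foxd1-lineage ENLWT replicate 2 (difference −2.12, adjusted p = 0.0795). Sox12 lost its call without Six2-lineage ENLWT replicate 2, Six2-lineage ENLT1 replicate 2 or 3, Foxd1-lineage ENLWT replicate 2 or 4 or Foxd1-lineage ENLT1 replicate 3 (difference −0.43 to −0.38, adjusted p = 0.0515 to 0.0820), and Sox13 without the filter on low counts (adjusted p = 0.0649). The lineages were sequenced with different read lengths and depths, and these cannot be told apart from the lineage. By Ddx3y, all Foxd1-sorted libraries were male, while the Six2-sorted groups held both sexes. The part of sex was not tested.

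Whole kidneys carry all cell types, and the ENL mutation is present there in the Cre lineage alone. In Six2 whole kidneys at E18.5, 49 members were tested. In ENLT1, 4 were higher and 4 lower (8.16% each), beside 2.88% and 4.88% of all genes. In ENLT3, 6 were higher and 4 lower (12.2% and 8.16%), beside 4.34% and 5.28% of all genes. The members' median log2 fold change was 0.11 in ENLT1 and 0.19 in ENLT3, against −0.013 and −0.0021 for all genes. Both comparisons share the same 2 ENLWT libraries.

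The forkhead pioneer factor Foxa1, known from endoderm, bladder and ureter epithelium, whose promoter with the joined forkhead and Sox letters is shown above, read 5.32 and 5.01 CPM in ENLWT, 9.72 and 8.89 CPM in ENLT1 and 11.4 and 12.8 CPM in ENLT3 kidneys. Controls were lowest and ENLT3 highest, with no overlap (log2 fold change 0.85 ± 0.10, adjusted p = 0.00167 for ENLT1, and log2 fold change 1.23 ± 0.10, adjusted p = 2.96e-04 for ENLT3). Foxq1 read 15.8 and 18.2, 30.6 and 31.3 and 32.3 and 31.0 CPM in the same order. Both mutants were apart from the controls and overlapped each other (log2 fold change 0.86 ± 0.086, adjusted p = 6.38e-04, and log2 fold change 0.90 ± 0.086, adjusted p = 4.64e-04). Foxn1 rose from 0.108 and 0.0922 CPM to 0.554 and 0.569 CPM in ENLT1 and 0.579 and 0.779 CPM in ENLT3 kidneys. Every mutant library was over 5-fold above the controls' mean (log2 fold change 2.48 ± 0.32, adjusted p = 0.00212, and log2 fold change 2.76 ± 0.32, adjusted p = 0.00112). Tbx1, known from the pharyngeal arches and the heart's outflow tract, read 0.215 and 0.257, 0.617 and 0.560 and 0.794 and 0.876 CPM. All mutants were above the controls (log2 fold change 1.31 ± 0.26, adjusted p = 0.0144, and log2 fold change 1.82 ± 0.26, adjusted p = 0.00290).

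Foxj1 fell in whole kidneys as well, from 6.15 and 7.40 CPM in ENLWT to 3.41 and 2.96 CPM in ENLT1 and 2.87 and 3.27 CPM in ENLT3. Both mutants were about 2-fold below the controls (log2 fold change −1.09 ± 0.15, adjusted p = 0.00262, and log2 fold change −1.14 ± 0.15, adjusted p = 0.00182). Of its 11 target genes of motile cilia, 0 were called in either mutant by the edgeR quasi-likelihood test (medians −0.0026 and −0.16). Foxf1, a hedgehog-responsive factor of visceral mesenchyme, read 1.35 and 1.27, 0.528 and 0.450 and 0.476 and 0.655 CPM. All 4 mutant libraries were below both controls (log2 fold change −1.42 ± 0.24, adjusted p = 0.00752, and log2 fold change −1.21 ± 0.24, adjusted p = 0.0130). Tbx10 read 0.622 and 0.679, 0.261 and 0.161 and 0.224 and 0.266 CPM. It too was lower in all 4 (log2 fold change −1.60 ± 0.33, adjusted p = 0.0164, and log2 fold change −1.41 ± 0.33, adjusted p = 0.0247).

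Foxc1 was lower in ENLT3 (51.8 and 60.9 CPM in ENLWT, 34.3 and 37.7 CPM in ENLT3, log2 fold change −0.65 ± 0.090, adjusted p = 0.00244), and in ENLT1 it read 41.5 and 42.9 CPM without a call (log2 fold change −0.42 ± 0.089, adjusted p = 0.0194). Both controls were above all 4 mutant libraries. Foxs1, a forkhead gene of perivascular cells, was called in ENLT1 (3.58 and 4.10 CPM in ENLWT, 2.20 and 2.62 CPM in ENLT1, log2 fold change −0.67 ± 0.18, adjusted p = 0.0420). Its ENLT3 libraries, at 3.597 and 2.79 CPM, overlapped the controls. Sox21 was called in ENLT3, where 93 reads stood against 3 in ENLWT, a ratio of 39.7, with a 95% exact interval of 13.2 to 196 for counting error (log2 fold change 5.197 ± 1.06, adjusted p = 0.0136), and it read 0.00768 and 0.0132 CPM in ENLWT and 0.467 and 0.381 CPM in ENLT3 kidneys. The ENLT1 libraries were uneven, at 0.0445 and 0.323 CPM. Tbx21, the T-bet factor of type 1 T cells, had 26 reads in ENLT3 against 6 in ENLWT, a ratio of 5.55, with a 95% exact interval of 2.24 to 16.5 for counting error (log2 fold change 2.42 ± 0.69, adjusted p = 0.0498). Among 6 T cell markers, 3 could be tested in ENLT3 kidneys and 2 were higher, while in ENLT1 1 was. The summed level of the 6 did not rise, at 17.3 to 18.3 CPM in ENLWT, 17.0 to 17.9 in ENLT1 and 16.3 to 17.7 in ENLT3. Most of this sum was Ikzf2, with 2302 and 2524 reads in ENLWT and 1530 and 1813 in ENLT3. Cd4 had 71 and 93 reads in ENLWT and 194 and 176 in ENLT3, and Cd3g 0 and 1 against 15 and 4. Cd3e, Il2ra and Ctla4 had at most 10 reads in any of these libraries.

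With 2 libraries a group, several of these calls turn on 1 library. In ENLT1, calls were lost for Foxs1 without ENLWT replicate 2 or ENLT1 replicate 1 or 2 (log2 fold change −0.79 to −0.53, adjusted p = 0.112 to 0.288), for Foxf1 without ENLT1 replicate 1 or 2 (log2 fold change −1.52 to −1.30, adjusted p = 0.0508 to 0.0801), for Tbx1 without ENLT1 replicate 1 or 2 (log2 fold change 1.26 to 1.39, adjusted p = 0.0717 to 0.106) and for Tbx10 without ENLT1 replicate 2 (log2 fold change −1.31, adjusted p = 0.134). The count of members lower in ENLT1 fell from 4 to 2 without ENLT1 replicate 1 and to 1 without ENLT1 replicate 2. In ENLT3, calls were lost for Tbx21 without ENLWT replicate 1 or 2, ENLT1 replicate 1 or 2 or ENLT3 replicate 1 or 2 (log2 fold change 2.15 to 2.67, adjusted p = 0.0855 to 0.225), for Tbx10 without ENLWT replicate 2 or ENLT3 replicate 1 or 2 (log2 fold change −1.53 to −1.28, adjusted p = 0.0641 to 0.143), for Foxc1 by its fold without ENLWT replicate 2 or ENLT3 replicate 1 (log2 fold change −0.57 to −0.51, adjusted p = 0.00364 to 0.0290), for Foxf1 without ENLT3 replicate 1 (log2 fold change −0.99, adjusted p = 0.0915) and for Sox21 without ENLT3 replicate 1 (log2 fold change 5.06, adjusted p = 0.0578). The count lower in ENLT3 fell from 4 to 2 without ENLWT replicate 2 and to 1 without ENLT3 replicate 1. The calls of Foxa1, Foxq1, Foxn1 and Foxj1 in either mutant and of Tbx1 in ENLT3 held in each of these fits. Leaving out 1 of 2 libraries assumes that the lone library varies like the other groups.

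Beside these changes, all 6 podocyte markers and all 8 tubule markers were lower in ENLT1 (medians −1.79 and −2.13) and in ENLT3 (−1.82 and −2.15). All 6 nephron progenitor markers were lower in ENLT1 (median −0.89) and in ENLT3 (−1.13), with sums of 310.1 to 367 CPM in ENLWT, 176 to 178 CPM in ENLT1 and 145 to 166 CPM in ENLT3 libraries, and 1 and 3 of 9 stromal markers were higher. The tubule list summed to 2037 to 2407 CPM in ENLWT, 588 to 688 CPM in ENLT1 and 543 to 587 CPM in ENLT3 libraries. Of the Foxi1 targets, 6 of 8 were lower in ENLT1 and 6 in ENLT3 (medians −1.44 and −1.21), whereas Foxi1 itself read 31.4 and 36.3 CPM in ENLWT, 25.2 and 25.4 CPM in ENLT1 and 31.5 and 25.4 CPM in ENLT3 kidneys and was not called (log2 fold change −0.42 ± 0.12, adjusted p = 0.0508, and log2 fold change −0.25 ± 0.12, adjusted p = 0.190). Macrophage markers were higher for 5 of 8 in each mutant. Ureteric tree markers had 1 of 5 lower in ENLT1 and 4 in ENLT3, smooth muscle markers 2 of 6 lower in each, and endothelial markers 0 of 10 called in either. Of adrenal and gonad markers 1 of 5 tested was higher in ENLT1, and of skeletal muscle markers 2 of 3 tested were lower, with the 2 ENLWT libraries far apart at 1.87 to 39.0 CPM in sum. Their part in the results above was not tested.

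**Figure D4:**
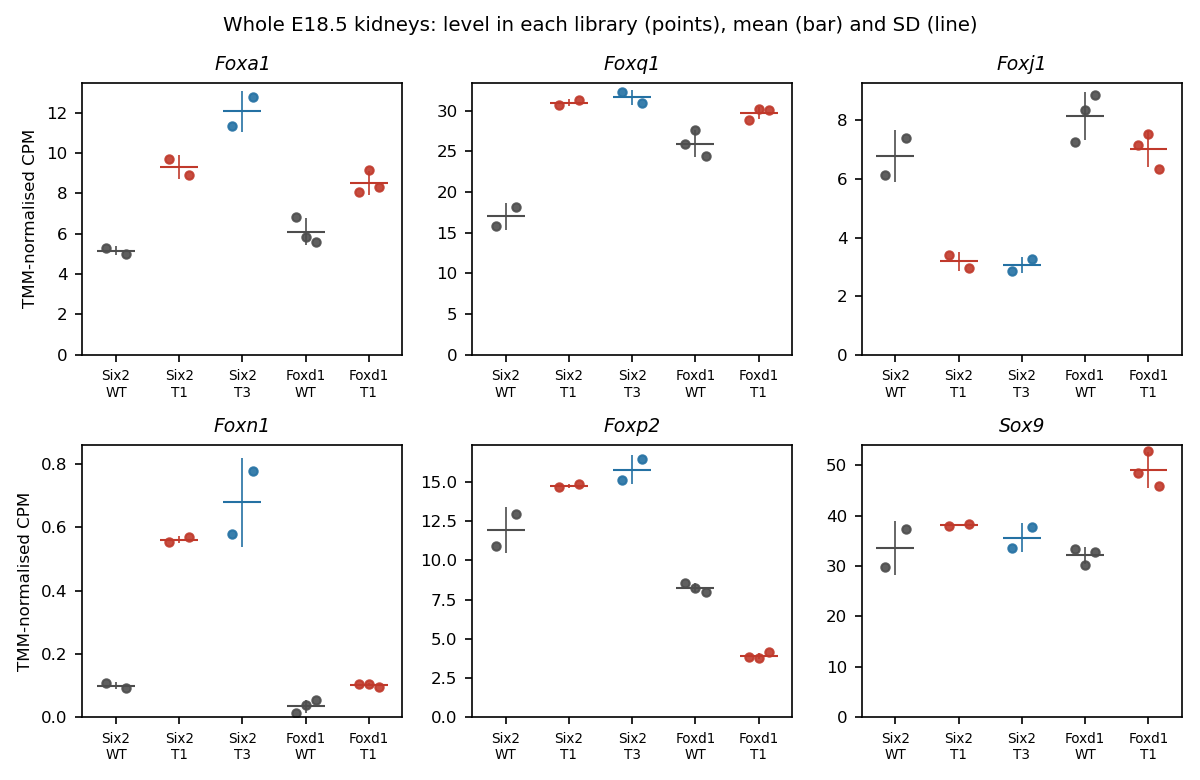
TMM-normalised CPM of Foxa1, Foxq1, Foxj1, Foxn1, Foxp2 and Sox9 in each whole-kidney library at E18.5 (points), with the mean (bar) and SD (line) of 2 libraries in the Six2 line and 3 in the Foxd1 line. Foxa1, Foxq1 and Foxn1 rise and Foxj1 falls in both Six2 mutants, while Foxp2 falls and Sox9 rises in Foxd1-ENLT1 kidneys.

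In Foxd1 whole kidneys the calls were of Sox9 and Foxp2 alone, both of them called in the sorted stroma as well, from separate libraries. Of 45 members tested, 1 was higher and 1 lower (2.22% each), beside 2.65% and 7.53% of all genes. The median log2 fold change was 0.07 for members and −0.0034 for all genes. Foxp2 read 8.54, 8.22 and 8.00 CPM in ENLWT and 3.85, 3.76 and 4.14 CPM in Foxd1-ENLT1 kidneys. Both groups were tight and far apart (log2 fold change −1.08 ± 0.11, adjusted p = 7.35e-06). Sox9 read 33.4, 30.1 and 32.8 CPM and 48.4, 52.8 and 45.8 CPM. All 3 mutants were above all 3 controls (log2 fold change 0.61 ± 0.066, adjusted p = 1.53e-05).

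The call of Sox9 sits near the fold threshold. It fell just short without ENLWT replicate 2 or ENLT1 replicate 2 (log2 fold change 0.56 to 0.57, adjusted p = 5.13e-05 to 1.37e-04), so the count of members higher was then 0. Without ENLWT replicate 3 a second member was called lower, so the count lower was 2. Of the 12 Sox9 cartilage targets, 4 were higher, namely Col11a1 (log2 fold change 1.03 ± 0.064, adjusted p = 1.31e-07), Matn4 (log2 fold change 0.81 ± 0.21, adjusted p = 0.00957), Col2a1 (log2 fold change 0.80 ± 0.072, adjusted p = 3.07e-06) and Col9a3 (log2 fold change 0.66 ± 0.12, adjusted p = 0.00104). Sox5, 13.0, 12.2 and 12.7 CPM in ENLWT and 8.60, 11.2 and 8.92 CPM in ENLT1 kidneys, was lower in all 3 mutants and under the fold threshold (log2 fold change −0.40 ± 0.11, adjusted p = 0.0109). Foxi1 read 29.3, 27.5 and 28.4 CPM and 22.2, 25.2 and 25.7 CPM, again lower by less than 1.5-fold (log2 fold change −0.22 ± 0.069, adjusted p = 0.0250), while 7 of its 8 targets were called lower (median −0.93). Nephron progenitor markers were higher for 5 of 6 (482 to 517 against 732 to 897 CPM in sum), tubule markers lower for 6 of 8, smooth muscle markers lower for 4 of 6 and stromal markers higher for 1 of 9 (Lum). Of the Foxj1 targets of motile cilia, 2 of 9 tested (Dnah5 and Ccdc40) were higher, while Foxj1 itself was not called (log2 fold change −0.22 ± 0.11, adjusted p = 0.153). The part of these cell types was not tested.

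Between E14.5 and E18.5, the members of sorted Six2 ENLWT cells changed more often upwards than downwards. The call here was an adjusted p under 0.01 and a fold over 2. Of 58 members tested, 23 were higher and 8 lower at E18.5 (39.7% and 13.8%), beside 24.8% and 20.6% of all genes. The members' median log2 fold change was 1.11, that of all genes 0.015. Over the alternative scalings the median of all genes moved by −0.14 (library size alone) to 0.13 (RLE size factors), and the calls of Foxj3 and Foxc1 depended on the scaling. By family, 14 Fox, 1 Tbx and 8 Sox genes rose, and 3 Fox, 1 Tbx and 4 Sox genes fell. The dissociation differed between the stages, so stage and dissociation cannot be told apart here either. The X-linked gene Xist, chosen after its values were seen, also differed between the ENLWT libraries without Ddx3y reads. It stood at 27.4 and 26.3 CPM at E14.5 and at 504 and 560 CPM at E18.5. The cause of this gap was not tested. Cell type markers moved with stage as well. All 6 podocyte and all 8 tubule markers were higher at E18.5 (median log2 fold changes 6.93 and 9.15). Higher too were 8 of 10 endothelial and 4 of 6 smooth muscle markers, with 1 smooth muscle marker lower. Nephron progenitor markers had 4 of 6 lower and 1 higher, and macrophage markers 4 of 8 lower and 1 higher. Of 9 stromal markers 1 was higher and 1 lower. Their part in the changes of the members was not tested.

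Of the FoxO genes, effectors of insulin signalling, 3 were higher at E18.5 and Foxo6 was not called. Foxo4 read 1.30, 1.26 and 1.74 CPM at E14.5 and 132, 133 and 124 CPM at E18.5. It went from a trace to one of the highest members (log2 fold change 6.497 ± 0.13, adjusted p = 8.30e-14). Foxo3 read 11.3, 10.1 and 10.9 CPM and 337, 335 and 305 CPM. The stages were far apart (log2 fold change 4.92 ± 0.11, adjusted p = 1.70e-13). Foxo1 rose less (log2 fold change 1.35 ± 0.073, adjusted p = 4.29e-10), and Foxo6 stayed low, with overlapping stages (log2 fold change 0.13 ± 0.23, adjusted p = 0.613). Of 12 FoxO target genes, 7 were higher and 0 lower (median 1.91). Among the 7 were Cdkn1b, a brake on the cell cycle (log2 fold change 4.85 ± 0.13, adjusted p = 6.60e-13), and Pdk4, which restrains glucose oxidation (log2 fold change 2.83 ± 0.16, adjusted p = 6.26e-10). What part the FoxO genes had in these changes was not tested. Foxk1, a forkhead gene of metabolic and autophagy control, rose from a mean of 9.01 to 90.5 CPM (log2 fold change 3.33 ± 0.096, adjusted p = 8.97e-13). Its paralogue Foxk2 read 127, 112 and 108 CPM and 109, 114 and 113 CPM. Those ranges overlapped (log2 fold change −0.05 ± 0.077, adjusted p = 0.592).

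Foxj1 went from 1.82, 2.08 and 2.32 CPM to 11.9, 11.8 and 12.9 CPM. Every E18.5 library was at least 5-fold above every E14.5 library (log2 fold change 2.56 ± 0.19, adjusted p = 1.25e-08). Of the 11 Foxj1 targets of motile cilia, 3 were higher and 1 lower (median 0.039). Foxi1 had no read in any of the 3 E14.5 libraries and 0.985, 1.96 and 2.30 CPM at E18.5. Against a floor of 3 counts per library this was at least 76.0-fold higher, and 7 of its 8 targets rose. Foxa1 (log2 fold change 3.40 ± 0.72, adjusted p = 6.44e-04), Foxq1 (log2 fold change 3.38 ± 0.31, adjusted p = 1.83e-07), Foxn2 (log2 fold change 1.61 ± 0.090, adjusted p = 5.78e-10) and Foxj3 (log2 fold change 1.08 ± 0.066, adjusted p = 1.68e-09) were also higher, the last with a fold just under 2 when libraries were scaled by their size alone (log2 fold change 0.94). Foxa2, Foxi3, Foxl2, Foxn1, Sox1, Sox3, Sox7, Sox15, Sox21 and Tbx21 rose from means under 0.4 CPM, the highest of them Sox7, which reached 1.85 CPM. Foxa2 lost its call without E14.5 ENLWT replicate 1 or 2 or E18.5 ENLWT replicate 1 (log2 fold change 4.42 to 4.67, adjusted p = 0.0104 to 0.0117) and Sox15 without E14.5 ENLWT replicate 1, 2 or 3 or E18.5 ENLWT replicate 1 or 2 (log2 fold change 2.46 to 2.89, adjusted p = 0.0114 to 0.0192).

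The 3 Fox genes that fell were Foxd2, Foxc2 and Foxc1. Foxd2, expressed in the early cap and stromal mesenchyme, read 161, 215 and 177 CPM at E14.5 and 26.99, 29.1 and 25.5 CPM at E18.5. It had the largest fall (log2 fold change −2.76 ± 0.11, adjusted p = 1.33e-11). Foxc2 read 212, 229 and 209.6 CPM and 59.0, 67.7 and 75.2 CPM. It too was lower in all E18.5 libraries (log2 fold change −1.69 ± 0.082, adjusted p = 1.32e-10). Foxc1 fell about 2-fold (log2 fold change −1.02 ± 0.090, adjusted p = 1.07e-07) and slipped under the fold threshold without E14.5 ENLWT replicate 2, E18.5 ENLWT replicate 1 or 2 or E18.5 ENLT1 replicate 1, 2 or 3 (log2 fold change −0.98 to −0.92, adjusted p = 3.05e-07 to 2.37e-06), as it did with RLE size factors or DESeq2 (−0.89 for each) and in a fit of the ENLWT libraries alone (−0.95). Sox30 (log2 fold change −1.49 ± 0.36, adjusted p = 0.00172) and Tbx10 (log2 fold change −1.25 ± 0.34, adjusted p = 0.00398) were lower at mean levels under 2 CPM. Sox30 lost its call without E18.5 ENLWT replicate 3 (log2 fold change −1.34, adjusted p = 0.01003) and Tbx10 without E14.5 ENLWT replicate 2 or E18.5 ENLWT replicate 2 or 3 (log2 fold change −1.12 to −1.10, adjusted p = 0.0183 to 0.0235).

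The Sox groups split. In SoxC, Sox4 read 446, 458 and 415 CPM and 156, 143 and 130.1 CPM. It fell about 3-fold (log2 fold change −1.62 ± 0.070, adjusted p = 4.09e-11). Sox12 read 238, 238 and 242 CPM and 90.9, 85.0 and 101 CPM. The fall was of like size (log2 fold change −1.38 ± 0.071, adjusted p = 2.40e-10). Sox11 read 481, 418 and 419 CPM and 616, 715 and 769 CPM. Unlike the other two it was higher at E18.5, by less than 2-fold (log2 fold change 0.67 ± 0.093, adjusted p = 1.35e-05). In SoxD, Sox5 (log2 fold change 3.30 ± 0.15, adjusted p = 6.85e-11) and Sox6 (log2 fold change 2.97 ± 0.21, adjusted p = 7.27e-09) rose, and Sox13, at 99.3, 93.1 and 88.4 CPM and 41.9, 35.6 and 38.2 CPM, fell (log2 fold change −1.28 ± 0.069, adjusted p = 3.76e-10). In SoxE, Sox8 rose (log2 fold change 1.14 ± 0.13, adjusted p = 1.57e-06) while Sox9 read about the same at both stages (log2 fold change 0.12 ± 0.075, adjusted p = 0.154), with overlapping libraries. Of the 12 Sox9 cartilage targets, 6 were higher at E18.5 and 0 lower (median 1.23). Foxp4, a relative of Foxp1 and Foxp2, read 149, 150.2 and 141 CPM and 86.0, 83.3 and 99.2 CPM, lower at E18.5 by less than 2-fold (log2 fold change −0.72 ± 0.074, adjusted p = 5.70e-07).

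**Figure D5:**
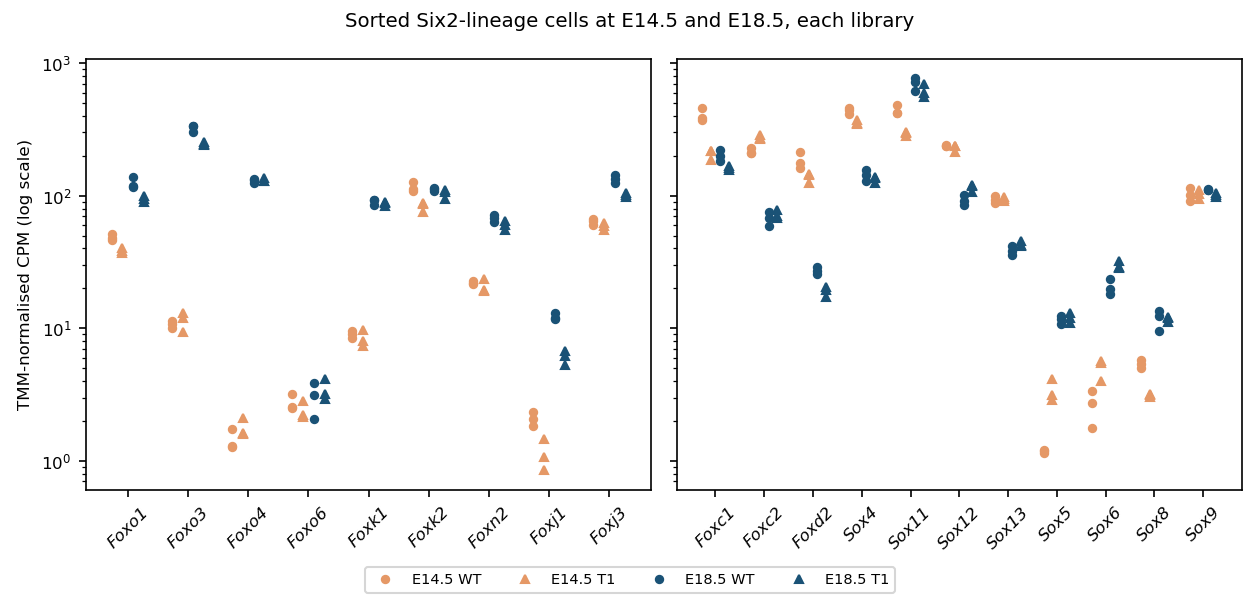
TMM-normalised CPM on a log axis of 9 Fox genes (left) and of 3 Fox and 8 Sox genes (right) in each library of sorted Six2-lineage cells, E14.5 (orange) and E18.5 (blue), ENLWT (circles) and ENLT1 (triangles). Foxo3 and Foxo4 rise steeply with stage in both genotypes, while Foxc2, Foxd2, Sox4, Sox12 and Sox13 fall.

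The 2 lineages were also set against each other in ENLWT cells at E18.5, in one fit of the counts of both sorted tables. Here 32 members were tested, of which 8 were higher and 14 lower in the Foxd1 lineage (25.0% and 43.8%), beside 27.2% and 28.2% of all genes. The median log2 fold change was −0.53 for members and −0.095 for all genes. Each table was scaled on its own for the CPM values given here. Read length, depth and the mix of sexes differed between the lineages here too.

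Higher in the stroma were Tbx3, at 4.18, 4.38 and 2.22 CPM in Six2-lineage and 143, 144, 161 and 159.7 CPM in Foxd1-lineage cells (log2 fold change 5.59 ± 0.18, adjusted p = 3.05e-17), and Tbx2, at 10.3, 11.4 and 8.96 and 75.7, 76.9, 67.9 and 94.8 CPM (log2 fold change 3.14 ± 0.12, adjusted p = 4.25e-16). Foxl1 read 8.59, 7.65 and 6.57 and 61.1, 59.5, 65.9 and 55.8 CPM (log2 fold change 3.19 ± 0.10, adjusted p = 1.65e-17). For these 3 genes every stromal library was above every Six2-lineage library. Foxp2 read 5.60, 4.19 and 4.87 and 16.8, 16.5, 20.7 and 19.3 CPM (log2 fold change 2.097 ± 0.18, adjusted p = 6.75e-10). In Six2-ENLT1 cells at E18.5 it read 15.5, 17.5 and 16.3 CPM and in Foxd1-ENLT1 stroma 11.9, 4.36, 7.27 and 7.496 CPM. Sox4 read 156, 143 and 130.1 and 616, 573, 579.9 and 569 CPM (log2 fold change 2.23 ± 0.077, adjusted p = 8.07e-17). The vessel-related genes Sox7 (log2 fold change 2.03 ± 0.30, adjusted p = 1.91e-06), Sox18 (log2 fold change 5.41 ± 0.61, adjusted p = 4.27e-08) and Foxs1 (log2 fold change 2.97 ± 0.34, adjusted p = 4.34e-08) were higher too, and so were all 10 endothelial markers (median 2.86), 5 of 6 smooth muscle markers and 6 of 8 macrophage markers, whose part was not tested.

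Lower in the stroma were Sox11 (616, 715 and 769 and 73.7, 62.8, 76.5 and 92.6 CPM, log2 fold change −3.00 ± 0.11, adjusted p = 4.17e-16), Foxo4 (132, 133 and 124 and 14.9, 15.6, 12.6 and 10.9 CPM, log2 fold change −3.04 ± 0.11, adjusted p = 1.72e-16) and Foxo3 (337, 335 and 305 and 57.7, 62.8, 65.5 and 62.3 CPM, log2 fold change −2.20 ± 0.071, adjusted p = 3.20e-17). Libraries of the 2 lineages did not overlap for any of them. Of the FoxO targets 9 of 12 were lower (median −1.37), and the part of the FoxO genes in this was not tested. Foxc1, Foxp1, Foxp4, Foxk2, Foxn2, Foxo1, Foxo6, Foxj1, Foxj3, Sox6 and Sox8 were lower as well, with log2 fold changes from −2.72 (Sox8) to −1.27 (Foxp4). Foxn3, a cell cycle checkpoint factor and the eighth in level per length in the stroma, read 119.8, 128 and 116 CPM in Six2-lineage and 129, 128, 148 and 131 CPM in Foxd1-lineage cells, a difference under 2-fold (log2 fold change 0.34 ± 0.079, adjusted p = 4.72e-04).

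Some members lie close together in the genome (mm10). Foxq1, Foxf2 and Foxc1 share a stretch of chromosome 13, with 64.8 kb between Foxq1 and Foxf2 and 175 kb between Foxf2 and Foxc1. In sorted Six2-ENLT1 cells at E18.5 Foxq1 and Foxf2 were higher while Foxc1 was lower without a call, with values given above. Foxf1, Foxc2 and Foxl1 lie within about 40 kb on chromosome 8 (gaps of 28.0 kb and 9.05 kb), and at E14.5 Foxl1 was called higher, Foxc2 was higher under the fold threshold and Foxf1 was not called (log2 fold change 1.07 ± 0.61, adjusted p = 0.319). Tbx2 and Tbx4 (chromosome 11, 44.5 kb apart), Foxd2 and Foxe3 (chromosome 4, 16.3 kb) and Tbx3 and Tbx5 (chromosome 5, 148 kb) are the other neighbours within 500 kb. At E14.5 Foxe3 was called higher while Foxd2 was lower without a call (log2 fold change −0.40 ± 0.10, adjusted p = 0.0391).

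A further 14 members were tested and called in none of the 10 comparisons, among them Foxa3, Foxj2, Foxn3, Foxp3, Sox2, Sox10, Tbx4, Tbx15 and Tbx19. Over the genotype comparisons in which they could be tested, their log2 fold changes ran from −2.79 ± 1.06 (Tbx15, a factor of limb and skin mesenchyme, sorted Six2 cells at E14.5) to 1.69 ± 0.72 (Foxa3, known from liver, same cells), with adjusted p of 0.136 and 0.177. Foxn3 alone among them had an adjusted p under 0.05 in a genotype comparison, in 3 of them: Six2-ENLT1 (log2 fold change 0.26 ± 0.055, adjusted p = 0.0193), Six2-ENLT3 (log2 fold change 0.22 ± 0.055, adjusted p = 0.0327) and Foxd1-ENLT1 whole kidneys (log2 fold change 0.18 ± 0.050, adjusted p = 0.0132), each far under the fold threshold. Foxp3, the factor of regulatory T cells, shares 31.5% of its exon length with overlapping genes.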

How the data were processed

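Polyadenylated RNA was sequenced from whole kidneys (KAPA stranded kit) and from sorted tdT+ cells (SMART-Seq v4). The authors mapped paired reads to mm10 with HISAT2, made unstranded gene counts with HTSeq, and deposited 4 tables of raw gene counts. Every column was used. Of 55806 identifiers 55450 have a symbol in the GENCODE annotation, and no total or unassigned row was in the tables. Library totals ran from 2557443 to 157266455 counts. Floors and intervals cover counting error only.

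From the counts, CPM was computed with TMM factors per experiment. Groups follow the GEO labels. Each comparison was fitted over all genes with edgeR's quasi-likelihood test (edgeR 4.0.16, R 4.3.3), after filterByExpr (minimum count 10, total 15), with Benjamini-Hochberg adjustment. Calls needed an adjusted p under 0.05 and a fold over 1.5 (genotype), under 0.01 and over 2 (stage, lineage), or under 0.05 (interactions). Fold changes carry ± SE. Scripts were tested on simulated data with 200 changed genes. Alternatives were DESeq2 1.42.0, edgeR's exact test, RLE factors, library size alone, no filter, the replicate block, smaller fits and leaving out each library. Library values are given for members called in sorted cells or in both Six2 whole-kidney mutants and for the 10 highest members per exon length, and other members by ranges and counts. Members and the 16 gene lists (12 FoxO, 12 Sox9, 8 Foxi1 and 11 Foxj1 targets, and 12 sets of cell type markers) were chosen with earlier results of these data known, and results of some genes and of 1 marker set are not reported here. Plots used matplotlib 3.10.9.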

Additional observations from a re-analysis of the deposited data

Results flagged for a closer look

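In the 4 libraries of sorted Foxd1-ENLT1 stroma, 5 of 56 tests for a library far from the rest of its group (28 members in 2 groups) stood out by Dixon's test, where chance alone gives about 1 in 20. Foxj3 was high in 1 library at 47.3 CPM and Sox18 in 1 library at 7.82 CPM. Foxk1 (33.8 CPM), Foxl1 (51.7 CPM) and Foxo1 (33.2 CPM) were each low in 1 library.

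The effect of ENLT1 differed between E14.5 and E18.5 in Six2-lineage cells, by the interaction term, for 8 members. The differences of log2 fold changes (E18.5 minus E14.5) were 0.66 for Foxc1, −9.17 for Foxi1, −1.37 for Foxl1, −0.49 for Foxo3, 0.39 for Sox12, −1.47 for Sox5, 0.77 for Sox8 and −1.03 for Tbx2. The value of Foxi1 rests on E14.5 libraries with no or few reads and is no bound.

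The effect differed between the Foxd1 and Six2 lineages at E18.5 for 10 members. The differences (Foxd1 minus Six2) were −0.54 for Foxc2, 1.19 for Foxp1, −3.02 for Foxp2, −2.47 for Foxq1, −0.44 for Sox12, −0.46 for Sox13, −1.07 for Sox5, 1.27 for Sox9, −0.65 for Tbx2 and −1.76 for Tbx3. Stage and dissociation cannot be told apart in these tests, nor can lineage and the read length and depth of sequencing.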

How the results depend on the processing

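Of 115 single-member calls, 83 held under every alternative that gave the member an adjusted p. A further 32 were lost under at least 1, and 0 changed direction. Of 268 recomputed counts of called members, 253 stayed within 1.5 times the reported count and 15 did not. Leaving out 1 library moved the members lower in Six2-ENLT1 whole kidneys from 4 to between 1 and 4, those lower in Six2-ENLT3 whole kidneys from 4 to between 1 and 4, those higher in sorted Six2-ENLT1 cells at E18.5 from 7 to between 4 and 9, those higher in Foxd1-ENLT1 whole kidneys from 1 to between 0 and 1, those lower there from 1 to between 1 and 2, and those that differed between stages from 8 to between 3 and 9. With edgeR's exact test 2 members were higher in Foxd1-ENLT1 whole kidneys. The cause was not tested. In the sorted Six2-ENLT1 cells at E18.5, the count of 4 came without ENLWT replicate 1 or 2.

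Groups share replicate numbers in the titles, but libraries with the same number did not deviate together (correlations of −0.079 to 0.14), so the numbers were not taken as pairs. With the replicate block, the members higher and lower were 4 and 3 in Six2-ENLT1 whole kidneys, 5 and 4 in Six2-ENLT3 whole kidneys, 7 and 3 among E14.5 Six2-sorted cells, 5 and 3 among E18.5 Six2-sorted cells, 1 and 2 in sorted Foxd1-ENLT1 stroma, 1 and 1 in Foxd1-ENLT1 whole kidneys, 24 and 8 between stages and 8 and 14 between lineages, with 6 stage and 10 lineage interactions. Calls lost under the replicate block were Foxs1 (adjusted p = 0.0704), Tbx21 in ENLT3 (0.0593), Sox6 at E14.5 (0.0631), Foxn1 (0.0558), Sox7 (0.0599) and Tbx20 (0.0583) at E18.5, and the stage interactions of Foxo3 (0.0685) and Sox12 (0.0538). Foxs1 was also lost with library size alone (adjusted p = 0.0559) and in a fit of 4 libraries (0.0503), Tbx21 in that fit (0.0658) and with DESeq2 (0.0798). Scaling by library size alone lost Sox7 at E18.5 (0.0764), Foxj1 at E14.5 (0.0571), the stage interaction of Foxo3 (0.0590) and, by its fold, Foxc1 in ENLT3. Depth limits the stroma most, where 44 of 72 members were not tested.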
